A study of Mus musculus with 6 samples.

Results

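The 10 tissue macrophage genes Cd68, Adgre1, Csf1r, Lyz2, C1qa, C1qb, C1qc, Mrc1, Mpeg1 and Itgam were examined in RNA labelled as ovarian from mice of high and low litter size groups. They were chosen by name and matched by Ensembl identifier and symbol, and all 10 were found among the 36727 genes of the count table. By the labels, RNA came from ovaries of female F4 inbred Swiss albino mice 135 to 140 days old, staged by estrous phase. Litter size, high (3 libraries, replicates 1, 3 and 4) or low (3 libraries, replicates 1, 2 and 5), is what separates the groups, and no treatment or engineered allele is given. Values are listed below in this order of replicates. Poly(A)-selected libraries held 17620903 to 24758222 estimated counts each. The labels do not state whether each library came from its own animal, so p-values measure the spread between these libraries, which may be technical.

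Macrophages are phagocytes that live in most tissues, and in the ovary they are known to surround growing follicles, to enter the corpus luteum and to clear dying granulosa and luteal cells. The receptor encoded by Csf1r binds the growth factors CSF1 and IL-34, on which most tissue macrophages depend. C1q, the recognition molecule that starts the classical complement pathway, is assembled from 3 chains encoded by C1qa, C1qb and C1qc, and tissue macrophages are a main source of it. Itgam encodes the alpha chain CD11b, which pairs with the beta chain of Itgb2 to form the complement receptor Mac-1, found on macrophages, neutrophils and eosinophils.

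No macrophage gene passed the test between the groups. By edgeR's quasi-likelihood test, adjusted over the 16455 genes tested, 0 of the 10 genes were called, against a background of 0.00608% of genes called. At an unadjusted p under 0.05 there were 2, Mpeg1 and Itgam, where the share among all genes tested was 14.4%. DESeq2 called the same 2 at an adjusted p under 0.05, with 6.56% of genes called, and limma voom called 0, with 0.0182% called. The log2 fold change, high minus low, was positive for 9 of the 10 genes and negative for Itgam, and 55.3% of all tested genes had a positive value. The median was 0.28 over the 10 genes and 0.07 over all genes tested, whose quartiles were -0.26 and 0.46.

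The labelled tissue was checked against its markers. In high replicates 1 and 3 and low replicate 2 the 8 steroidogenic and luteal markers summed to 119 to 262 CPM (the count scaled to the TMM-normalized library size), against 858 to 10454 CPM in the other 3 libraries. Inha, a granulosa cell gene for an inhibin subunit, had 1.23 to 2.12 CPM in those 3 libraries and 110 to 199 CPM in the others. The 8 adipocyte markers summed to 25995 CPM in high replicate 3 and to 401 to 3931 CPM elsewhere. The 10 oviduct and uterine epithelium markers summed to 462, 1328 and 6057 CPM with high and to 17591, 7341 and 5434 CPM with low litter size. The sums of steroidogenic, granulosa and oocyte markers were thus lower in high replicates 1 and 3 and low replicate 2. The label of these 3 libraries as ovary is therefore in doubt, and every group value below mixes them with the other 3. The part of this in the macrophage values was not tested. In bulk RNA, fewer macrophages and less RNA per macrophage cannot be told apart.

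Levels of different genes were compared per kilobase of merged exons. Lyz2, which encodes the lysozyme of myeloid cells that cleaves bacterial cell walls, had the largest mean, 321 ± 94.7 CPM per kilobase (SD over all 6 libraries). C1qa followed with 104 ± 34.1, C1qb with 72.9 ± 27.4 and C1qc with 46.7 ± 16.2 CPM per kilobase. Lyz2 did not overlap C1qa, since its lowest library had 186 CPM per kilobase and the highest of C1qa had 166. The remaining 6 genes had similar levels per length, from 28.8 ± 24.5 CPM per kilobase for Itgam and 27.8 ± 13.4 for the lysosomal glycoprotein gene Cd68 through Mpeg1 (24.98), Adgre1 (23.3) and Mrc1 (21.4) to 20.4 ± 4.54 for Csf1r. Neighbours among these 6 differed by less than their spread over libraries. Together the 10 genes took 0.102 to 0.155% of counts per library.

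**Figure D1:**
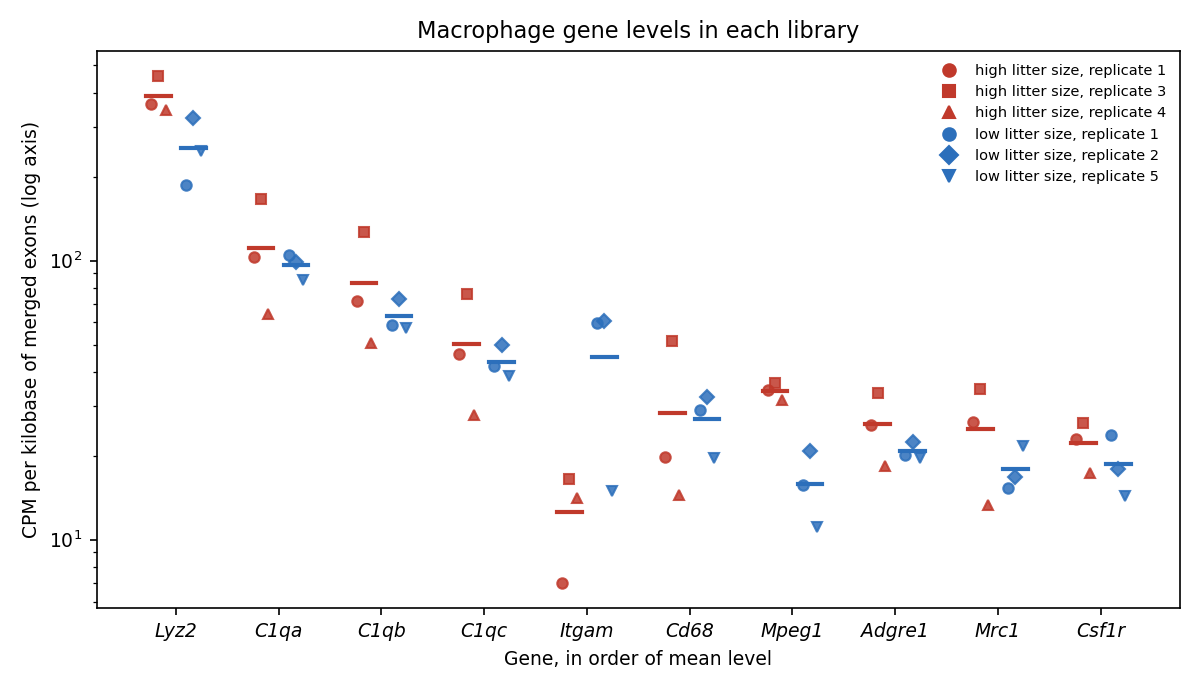
Level of each of the 10 genes in each library, in CPM per kilobase of merged exons on a log axis, with red symbols for high and blue for low litter size and a bar at each group mean. Genes run from Lyz2 (mean 321) to Csf1r (mean 20.4), and Itgam is the gene whose low group splits, with replicates 1 and 2 at 59.8 and 60.6 and replicate 5 at 14.98.

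A few sequences bear on how the counts can be read. The lysozyme genes Lyz2 (chr10:117277331-117282321, reverse strand, GRCm38, GENCODE M21) and Lyz1, the lysozyme of intestinal Paneth cells, are neighbours. Their coding sequences of 447 bases were 95.1% identical, with 22 differences. The first 90 coding bases are shown to let the pair be compared, 5′ to 3′ from the GENCODE transcripts, with capitals at the 7 bases that differ.
Lyz2: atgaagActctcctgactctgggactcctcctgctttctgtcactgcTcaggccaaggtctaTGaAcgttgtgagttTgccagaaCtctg
Lyz1: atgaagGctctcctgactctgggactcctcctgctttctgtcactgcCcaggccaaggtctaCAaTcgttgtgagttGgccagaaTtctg
Of the 31-base words in the Lyz2 transcript, 32.8% also occur in Lyz1, so a share of lysozyme reads is divided by estimation. Lyz2 held 93.0% of the counts of the pair in high replicate 1 and 98.2 to 99.6% in the other libraries.

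Itgam (chr7:128062640-128118491, forward strand) shares 3450 exon bases, 68.7% of its own, with Gm49368, an annotated protein-coding gene on the same strand that starts inside it. Of Itgam's 31-base words, 68.3% occur in another gene's transcripts, nearly all of them in Gm49368. The table gave Gm49368 counts of 22, 13 and 8 with high and of 44, 74 and 14 with low litter size. Itgam held 96.9 to 99.4% of the counts of the pair, and the summed level of the pair was 36.4, 83.7 and 71.2 CPM with high and 303, 309 and 75.8 CPM with low litter size. The division between these overlapping genes is uncertain, and the differences between libraries were as large in their sum as in Itgam alone. Csf1r shares 15.1% of its exon bases with Hmgxb3 on the opposite strand, and no source used here states that counting used strand. In the other 7 genes, the share of 31-base words found elsewhere was 0% (Cd68, Adgre1, C1qa, C1qb, C1qc and Mrc1) or 0.727% (Mpeg1).

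The C1q genes lie side by side on the reverse strand of chromosome 4, C1qb at 136880129 to 136886187, C1qc at 136889804 to 136893065 and C1qa at 136895917 to 136898803. RefSeq promoter windows of 300 bases around the gene start, on GRCm38.p6, were found for 7 of the 10 genes. Those of C1qb (chr4:136886151-136886450) and C1qc (chr4:136892865-136893164) are shown, as neighbours whose levels moved together, with capitals at GAGGAA on either strand, the core bound by the myeloid factor PU.1.
C1qb promoter: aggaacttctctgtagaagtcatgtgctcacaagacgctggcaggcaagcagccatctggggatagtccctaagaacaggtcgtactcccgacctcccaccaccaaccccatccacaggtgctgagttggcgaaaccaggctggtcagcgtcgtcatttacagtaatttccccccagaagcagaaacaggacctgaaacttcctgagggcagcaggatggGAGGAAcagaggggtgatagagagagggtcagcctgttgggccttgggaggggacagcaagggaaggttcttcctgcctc
C1qc promoter: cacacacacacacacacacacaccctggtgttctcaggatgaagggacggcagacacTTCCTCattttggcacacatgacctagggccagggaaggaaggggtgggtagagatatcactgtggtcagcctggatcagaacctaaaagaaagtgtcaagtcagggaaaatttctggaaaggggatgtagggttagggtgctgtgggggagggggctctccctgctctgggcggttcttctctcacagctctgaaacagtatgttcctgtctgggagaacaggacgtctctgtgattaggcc
GAGGAA was found in 5 of the 7 windows (C1qb, C1qc, Cd68, Itgam and Mrc1) and in 28.3% of all 32851 promoter windows. TGANTCA, the AP-1 core, was found on either strand in 1 of the 7, Cd68, and in 7.81% of all. The 2 motifs were searched separately, neither holds the other, and a match is a description of the window.

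The 3 C1q genes were high and low in the same libraries of the high group, and none differed between the groups by the test. C1qa had 107, 173 and 67.2 CPM with high and 109, 103 and 88.6 CPM with low litter size. C1qb had 78.2, 137 and 54.9 CPM with high and 64.2, 79.1 and 62.6 CPM with low litter size. C1qc had 89.4, 147 and 53.8 CPM with high and 80.6, 95.9 and 74.7 CPM with low litter size. For each chain the highest and the lowest library both belonged to the high group, replicates 3 and 4, so that the low libraries lay between them. The log2 fold changes were 0.21 for C1qa (SE 0.35, adjusted p = 0.819), 0.39 for C1qb (SE 0.35, adjusted p = 0.649) and 0.21 for C1qc (SE 0.36, adjusted p = 0.832). Without high replicate 3 they were -0.20, -0.04 and -0.22.

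The proportions of the 3 chains were steadier than their levels. Per kilobase, C1qa made up 44.7 to 50.9% of the C1q signal, C1qb 28.7 to 35.3% and C1qc 19.5 to 22.5%. By that measure C1qa was above C1qb and C1qb above C1qc in 6 of 6 libraries. The shares, and the order of C1qb and C1qc, rest on the merged exon lengths, 1088 bases for C1qb and 1931 for C1qc. By counts, C1qb was below C1qc in every library except high replicate 4. The log2 ratio of C1qa to C1qc, from counts within a library, was 0.27 ± 0.042 in the high and 0.26 ± 0.17 in the low group (SD, n = 3; exact two-sided permutation p = 0.9). The ratio of C1qb to C1qc was higher in each high library than in any low library, at 0.875, 0.935 and 1.02 against 0.796, 0.825 and 0.838 on the linear scale. That gave an exact permutation p of 0.1, the smallest that 3 against 3 allow, and 0.333 after adjustment over the 10 ratios tested.

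Cd68 (chromosome 11, 69664213 to 69666153, reverse strand), a marker of phagocyte lysosomes, had the smallest counts of the set, 360 in high replicate 4, with a 95% counting interval of 324 to 399 (exact Poisson, counting error only). Its level was 24.8, 64.7 and 18.1 CPM with high and 36.7, 40.6 and 24.6 CPM with low litter size, with high replicate 3 at the top and high replicate 4 at the bottom. The log2 fold change was 0.08 (SE 0.50, adjusted p = 0.958), and it was -0.66 without high replicate 3. Adgre1 (chromosome 17, 57358691 to 57483527), which encodes F4/80, the classical surface marker of mouse macrophages, had 83.3, 109 and 59.3 CPM with high and 65.0, 72.7 and 63.6 CPM with low litter size. Its low libraries lay within 1.14-fold of each other and inside the range of the high group. The log2 fold change was 0.32 (SE 0.25, adjusted p = 0.607).

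Csf1r (chromosome 18, 61100598 to 61132149) had 133, 151 and 100.3 CPM with high and 137, 103 and 82.9 CPM with low litter size, with groups that overlapped (log2 fold change 0.25, SE 0.27, adjusted p = 0.715). Mrc1 (chromosome 2, 14229392 to 14332057), which encodes the mannose receptor CD206 of resident macrophages, had 169, 221 and 84.9 CPM with high and 97.2, 106 and 138 CPM with low litter size. High replicates 1 and 3 were above the whole low group and high replicate 4 was below it (log2 fold change 0.47, SE 0.37, adjusted p = 0.600). Across the set, high replicate 3, the library of highest adipocyte markers, had the highest CPM of 9 of the 10 genes. High replicate 4, the library of highest steroidogenic markers, had the lowest CPM of 6. Both numbers depend on the TMM factor, 0.839 in high replicate 3 and 0.978 to 1.10 in the others. Before that scaling, high replicate 1 was above high replicate 3 for Mpeg1 (2912 and 2528 counts) and Csf1r (2600 and 2418). High replicate 4 was also above high replicate 3 for Mpeg1 (2727 counts). The total counts of high replicates 1 and 3 were 18038084 and 19123306. As a share of these totals, Lyz2 (9395 and 9659 counts) was also higher in high replicate 1.

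Mpeg1 (chromosome 19, 12460779 to 12465283, forward strand), which encodes perforin-2, a pore-forming protein that phagocytes use against bacteria, had the smallest p of the set. It had 149, 158 and 137 CPM with high and 67.8, 90.1 and 48.0 CPM with low litter size. Every high library was above every low library, and the high libraries lay within 1.15-fold of each other. The group means were 148 ± 10.4 and 68.6 ± 21.1 CPM (SD, n = 3), a log2 fold change of 1.11 (SE 0.26, edgeR adjusted p = 0.191, DESeq2 adjusted p = 0.00847). With 1 library left out it ranged from 0.91 to 1.35. Against Adgre1 in the same library, Mpeg1 counts were 1.79, 1.45 and 2.31 times as high in the high group and 1.04, 1.24 and 0.755 times in the low group (exact permutation p = 0.1, adjusted 0.333).

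Lyz2 had 480.2, 603 and 454 CPM with high and 245, 428 and 326 CPM with low litter size, again with every high library above every low one, though high replicate 4 and low replicate 2 were close. Its log2 fold change was 0.62 (SE 0.30, adjusted p = 0.398). Lyz2 and Mpeg1 were thus 2 of 10 genes whose groups did not overlap, against 19.5% of all genes tested in either direction and 8.75% with high above low.

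**Figure D2:**
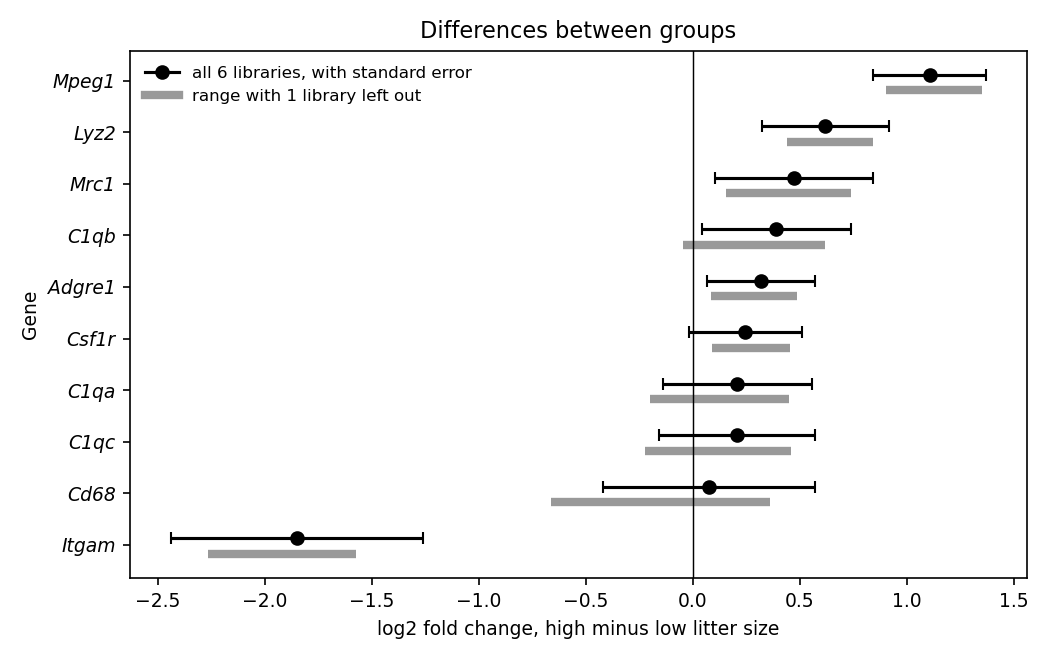
Log2 fold change of each gene, high minus low litter size, with its standard error (black) and the range of the estimate when any 1 library is left out (grey). Mpeg1 (1.11) and Itgam (-1.85) lie farthest from 0, and the grey ranges of Cd68, C1qa, C1qb and C1qc cross it.

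Itgam did not follow the other genes. It had 35.3, 82.8 and 70.8 CPM with high and 300.4, 305 and 75.3 CPM with low litter size. Low replicates 1 and 2 stood about alike and far above the rest, while low replicate 5 lay inside the range of the high group. The group means were 63.0 ± 24.7 and 227 ± 131 CPM (SD, n = 3), a log2 fold change of -1.85 (SE 0.59, edgeR adjusted p = 0.270, DESeq2 adjusted p = 0.0358). With 1 library left out it ranged from -2.26 to -1.57.

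The beta chain that CD11b needs, Itgb2, had 51.5, 61.3 and 36.7 CPM with high and 22.4, 27.03 and 36.8 CPM with low litter size. It was lowest in the libraries where Itgam was highest (log2 fold change 0.79, SE 0.28, adjusted p = 0.304). Itgam counts were 0.685, 1.35 and 1.93 times those of Itgb2 in the high libraries and 13.4, 11.3 and 2.05 times in the low libraries. Each low library was above each high one, at an exact two-sided permutation p of 0.1 and 0.333 adjusted. Against Adgre1, Itgam counts were 0.423, 0.760 and 1.20 times as high in the high and 4.62, 4.19 and 1.18 times in the low libraries, where low replicate 5 fell inside the high range (exact permutation p = 0.2, adjusted 0.4).

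Neutrophils and eosinophils also carry CD11b, and their markers were read in the same libraries. The neutrophil genes S100a8 and S100a9, subunits of calprotectin, had 0.289 and 0.924 CPM in low replicate 1 and 0.0533 and 0.320 CPM in low replicate 2, where Itgam was highest, and were named as the list's smallest p. With high litter size S100a8 had 0.869, 29.9 and 15.8 CPM, and S100a9 had 1.02, 56.8 and 57.2 CPM. The 14 neutrophil markers other than Ltf, which uterine epithelium also makes, summed to 50.5, 175 and 191 CPM with high and 53.5, 63.9 and 70.3 CPM with low litter size, and with Ltf the 15 summed to 140 to 3876 and 3256 to 14199 CPM. Other neutrophil genes differed from this order. Ly6g, a surface marker of neutrophils, was highest in low replicates 1 and 2, at 1.21 and 2.24 CPM against 0.0511 to 1.19 CPM elsewhere, and Retnlg had 19.6, 14.5 and 55.6 CPM with high and 26.1, 34.6 and 36.1 CPM with low litter size. Of the 15 genes 11 were tested, and the log2 fold change was above 0 for 7 and below 0 for 4 (median 0.52). Of the 15, 5 were at 0 in low replicate 1, and 2 each in low replicates 2 and 5 and in high replicate 1. Of the 9 eosinophil markers, 3 were at 0 in each of low replicates 1 and 2 and also in high replicate 1, and their sum ran from 40.3 to 129 CPM in the high and from 67.1 CPM in low replicate 2 to 189 CPM in low replicate 1, over the low group. Alox15 alone made up 158 of the 189 CPM, and without it the other 8 summed to 21.0, 21.1 and 35.1 CPM with high and 30.6, 25.6 and 25.6 CPM with low litter size. Il5ra, the interleukin-5 receptor alpha chain, was highest in low replicate 1, at 11.0 CPM against 2.06 to 3.51 CPM elsewhere. Prg2, a granule protein gene, was highest in low replicate 2, at 3.57 CPM, with 2.06 CPM in high replicate 3. Other eosinophil markers differed from this. Siglecf had 5.26, 2.43 and 4.73 CPM with high and 2.60, 3.04 and 2.22 CPM with low litter size. Ccr3 was highest in high replicate 4, at 26.9 CPM, against 16.6 and 16.1 CPM in low replicates 1 and 2. The eosinophil peroxidase gene Epx had 0.0578 CPM in low replicate 1 and was at 0 in low replicate 2. The part of these cells in the Itgam values was not tested.

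Complement C3, whose fragment is a ligand of Mac-1, had 29921 and 21013 CPM in low replicates 1 and 2 and 1190 to 4831 CPM in the other 4 libraries, and was singled out after its values were seen. Low replicate 1 also had the highest sum of oviduct and uterine epithelium markers, 17591 CPM, and low replicate 2 the next, 7341 CPM. Ltf, which is in this list too, made up 14146 and 4676 CPM of these sums. Without it the other 9 genes summed to 373, 515 and 2373 CPM with high and 3446, 2665 and 2248 CPM with low litter size, with high replicate 4 inside the low range. Their part in the Itgam values was not tested.

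**Figure D3:**
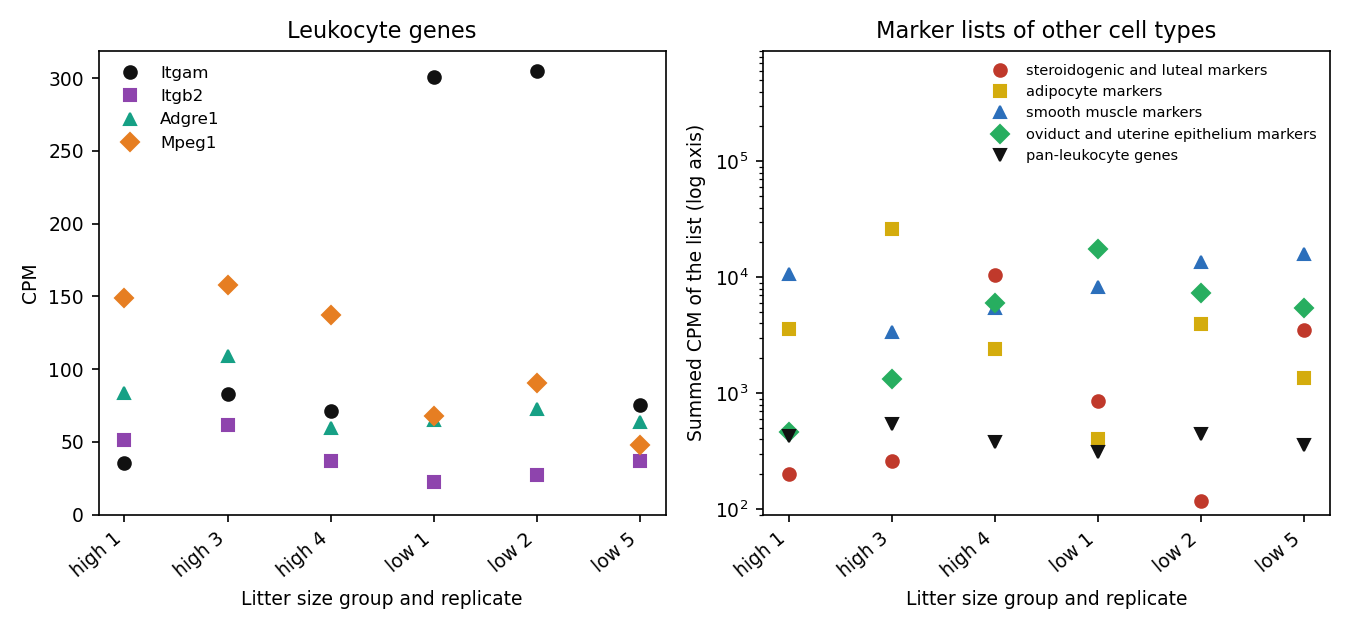
Left, CPM of Itgam, Itgb2, Adgre1 and Mpeg1 in each library. Right, summed CPM (log axis) of the marker lists of other cell types in each library. Itgam reaches 300.4 and 305 CPM in low replicates 1 and 2, where Itgb2 is at 22.4 and 27.03 CPM, and the steroidogenic list is lowest in low replicate 2 (119 CPM).

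The 10 within-library ratios do not depend on library scaling. For the macrophage pairs Mrc1 to Adgre1, Csf1r to Adgre1 and C1qa to C1qc, the group means of the log2 ratio differed by 0.10, -0.02 and 0.01, less than the spread within groups (exact permutation p = 1, 0.9 and 0.9). Cd68 to Adgre1 differed by -0.39 and Lyz2 to Cd68 by 0.76, with overlapping groups (exact permutation p = 0.4 and 0.3). Lyz2 counts ran from 6.67 times those of Cd68 in low replicate 1 to 25.1 times in high replicate 4. The C1qa to C1qb ratio differed by -0.19 (exact permutation p = 0.2). None of the 10 ratios could reach an adjusted p under 0.05 with 3 libraries a group.

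**Figure D4:**
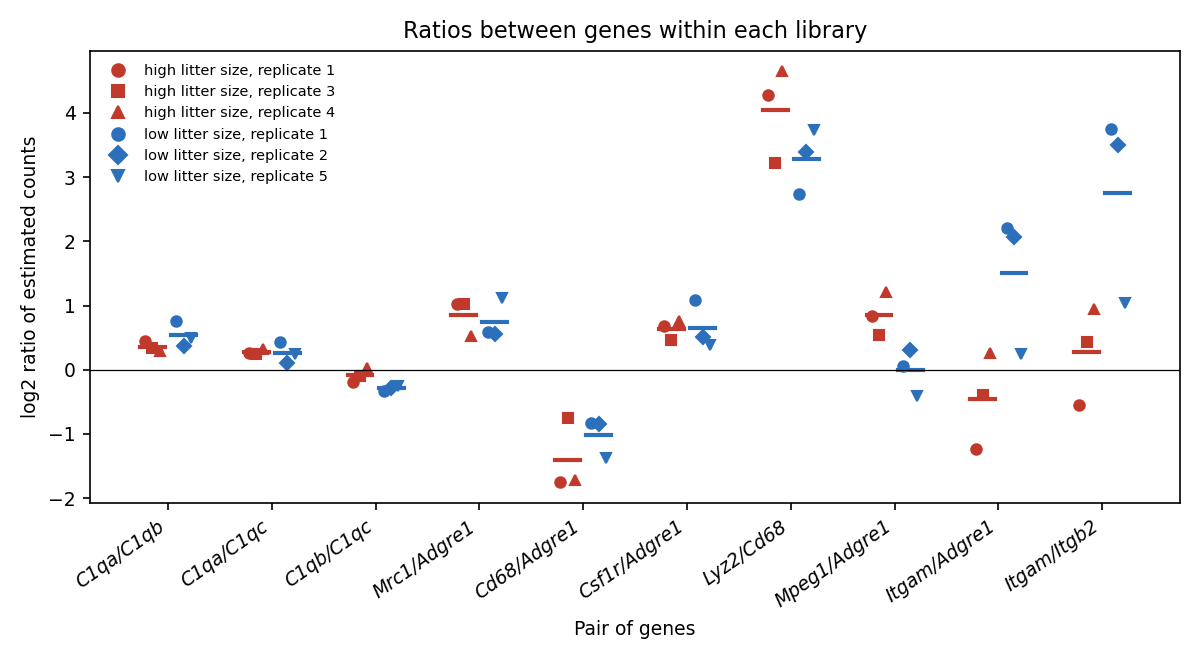
Log2 ratio of the estimated counts of 2 genes within each library, red for high and blue for low litter size, with a bar at each group mean. The C1q pairs vary least, and the Itgam to Itgb2 ratio ranges from -0.55 in high replicate 1 to 3.74 in low replicate 1.

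The sum of the 10 genes was 1349, 1846 and 1101 CPM with high and 1203, 1424 and 985 CPM with low litter size, a difference of 0.23 on the log2 scale between group means. Without Itgam the sum was 1313, 1763 and 1030 CPM with high and 903, 1119 and 909 CPM with low litter size. The groups overlapped on both counts. The 10 pan-leukocyte genes, such as Ptprc, which encodes CD45, summed to 429, 544 and 377 CPM with high and 309, 447 and 355 CPM with low litter size. Relative to them, the mean log2 level of the 9 macrophage genes other than Itgam was higher by 1.67, 2.07 and 1.36 in the high and by 1.71, 1.51 and 1.45 in the low libraries, with overlap. With TMM scaling, high replicate 3 was highest on each of these measures, and the last, a difference within a library, does not depend on scaling. As a share of total counts the 10 genes were also highest there, at 0.155% against 0.102 to 0.146% elsewhere.

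Without high replicates 1 and 3 and low replicate 2, the libraries of low ovarian markers, high replicate 4 alone was set against low replicates 1 and 5. There 2 of the 10 genes had positive log2 fold changes, Lyz2 (0.64) and Mpeg1 (1.21), and the median was -0.37. Itgam had -1.44, and Cd68, C1qa and C1qc had -0.79, -0.59 and -0.56. None passed edgeR's test. Without high replicate 3 alone, 5 of the 10 were positive and the median was 0.02. The direction for Csf1r, Adgre1, Mrc1, Cd68 and the C1q genes thus changed with the libraries included, while Mpeg1, Lyz2 and Itgam had the same sign in each of these fits.

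The accompanying genes came from 16 lists holding 178 further genes, of which 164 were tested. The lists hold macrophage-related genes and also markers of other cell types, such as adipocytes, smooth muscle and epithelium. By edgeR 0 passed, against 0.00608% of all genes tested. At an unadjusted p under 0.05 there were 32, against 14.4% of all genes. They included 6 oviduct and uterine epithelium, 3 smooth muscle and 4 neutrophil markers. Also included were 6 complement genes, 4 of the CSF1 axis and myeloid factors and 1 of the other macrophage genes. DESeq2 called 17 (8 higher, 9 lower), against 6.56%, and limma voom 0, against 0.0182%. Among 24 tested of 25 other macrophage genes, 19 had positive and 5 negative values, with a median log2 fold change of 0.28, against 0.07 for all genes tested. Gpnmb, a glycoprotein of lipid-laden phagocytes, had 28.0, 47.8 and 52.0 CPM with high and 24.5, 18.4 and 10.1 CPM with low litter size (log2 fold change 1.27, SE 0.39, adjusted p = 0.263). Cd163, the haemoglobin scavenger receptor, had 124 CPM in high replicate 3 and 3.70 to 21.9 CPM elsewhere. Mertk, a receptor for apoptotic cells, had a log2 fold change of 0.69 and Tyrobp, a signalling adaptor, 0.39.

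Among the CSF1 axis and myeloid factors, 17 of 18 were tested, 14 had positive and 3 negative values, and the median was 0.29. Klf4, a transcription factor also found in epithelium, had 38.1, 51.1 and 32.9 CPM with high and 173, 181 and 102 CPM with low litter size (log2 fold change -1.90, adjusted p = 0.140). Csf2rb, the shared beta chain of the GM-CSF receptor, had 70.6, 111 and 23.1 CPM with high and 23.1, 16.3 and 21.3 CPM with low litter size (1.76, adjusted p = 0.261). Csf3, the granulocyte growth factor, had -2.25, and Cebpa, a factor of myeloid and fat cells, had 2.31 with 752 CPM in high replicate 3.

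The complement list (16 tested, 11 positive, 5 negative, median 0.31) held C1ra, the protease that C1q activates, with 158, 164 and 124 CPM with high and 81.7, 94.3 and 95.1 CPM with low litter size. Its groups did not overlap, and its log2 fold change of 0.72 did not pass (adjusted p = 0.224). Cd55, which speeds the decay of complement convertases, had -0.74, Masp1 1.68 and C1rl 1.86. All 6 genes of the list of integrin partners were tested, 5 of them positive, with Itgax, the alpha chain CD11c, at 1.27. Of the 14 lysosomal genes 9 were positive (median 0.39), among them Lipa, the lysosomal acid lipase, at 1.15 (adjusted p = 0.184) and the protease Ctsd at 1.01. Of the 10 pan-leukocyte genes 7 were positive, with a median of 0.25 and with Lcp1 at 0.67 and Ptprc at 0.40.

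Among 12684 genes of at least 5 CPM, those whose profile over the 6 libraries lay nearest to the mean of the 3 C1q chains were Tmem110, Csk, Zhx2, Gpi1 and Wdr18. The measure was the SD over libraries of the log2 difference, which was 0.070 for Tmem110 and 0.11 for Wdr18, beside an SD of 0.46 for the C1q profile itself. By the same measure C1qc was at 0.087 from the mean of the other chains, C1qa at 0.13 and C1qb at 0.14. Adgre1 was at 0.18, Mrc1 and Cd68 at 0.30, Csf1r at 0.33, Lyz2 at 0.46, Mpeg1 at 0.68 and Itgam at 1.32. Csk, a kinase that restrains Src-family kinases, had 66.3, 95.9 and 42.5 CPM with high and 55.2, 60.2 and 52.1 CPM with low litter size, in the same order of high replicates as C1qa. Tmem110, Zhx2, Gpi1 and Wdr18 had that order too, with Gpi1 at 302, 439 and 193 CPM with high litter size. This profile was thus not particular to the C1q genes.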

How the data were processed

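The deposited table held estimated counts per Ensembl gene in 6 libraries labelled as mouse ovary RNA. Per the submitters' processing notes, Trim Galore, kallisto and DESeq2 were used with GRCm38. Versions and annotation release are not given in the sources used here. The deposited estimated counts are whole numbers, so rounding changed nothing. Symbols (35869 genes matched, 858 not), coordinates, exon lengths and 31-base words are from GENCODE M21. Genes were kept by filterByExpr (minimum count 10, minimum total 15), TMM-normalized and tested with edgeR 4.0.16 (quasi-likelihood, R 4.3.3), high against low, adjusted by Benjamini-Hochberg with a threshold of 0.05, no covariate. The standard error is the log2 fold change over the square root of F. DESeq2 1.42.0 (822 undefined adjusted p-values left undefined), limma 3.58.1 voom, other scalings and filters and leaving out each library were alternatives. Ratios were tested by exact permutation (scipy 1.17.1). The fits were tested on simulated data. Libraries held 17620903 to 24758222 counts, and the least counted of the 10 genes had 360 in 1 library. Genes named outside the 10 were up to 4 of smallest p per list and the 5 nearest to the C1q mean, while Inha, C3, Epx, Ltf, Ly6g, Retnlg, Prg2, Gm49368, Hmgxb3, Lyz1 and the 5 genes nearest to Itgam were named after their values were seen. The genes and lists were chosen with earlier results of these data known.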

Additional observations from a re-analysis of the deposited data

How the results depend on the processing

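The number of genes called over the whole table was 1. DESeq2 called 1026, library-size scaling 2, limma voom 3, and fits with 1 library left out 0 to 1. Of the 10 macrophage genes, DESeq2 called 2 (Itgam at -1.84 and Mpeg1 at 1.11) and each other setting 0, and of the accompanying genes DESeq2 called 17 and each other setting 0. Cd68, near 0 in the fit of all 6 libraries, had -0.0036 with library-size scaling and -0.12 with voom. With 1 library left out, values ranged from -0.66 to 0.36 for Cd68, -0.20 to 0.45 for C1qa, -0.043 to 0.62 for C1qb and -0.22 to 0.46 for C1qc, each lowest without high replicate 3. Likewise the C1qa to C1qc ratio difference ranged from -0.066 to 0.099 and that of Csf1r to Adgre1 from -0.16 to 0.19. The cause was not tested. The difference in the summed level was 0.033 without high replicate 3 and 0.41 without high replicate 4. Leaving out the 3 libraries of low ovarian markers together was added after the data were seen. It sets high replicate 4 alone, assumed to vary like the low group, against low replicates 1 and 5, and called 0 genes. There Cd68 had -0.79, Adgre1 -0.15, Csf1r -0.17, C1qa -0.59, C1qb -0.24, C1qc -0.56 and Mrc1 -0.50, while Lyz2, Mpeg1 and Itgam kept their sign. No paired analysis was possible because just 1 replicate number occurs in both groups. Scaling does not change a ratio within a library, and so gave no further values for the ratios.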

Other observations

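Dendritic and mast cell genes had mostly positive values, though none passed by edgeR. All 9 tested of 10 dendritic cell markers had positive log2 fold changes (median 0.80), with Zbtb46, a transcription factor of conventional dendritic cells, at 18.7, 31.6 and 26.0 CPM with high and 9.01, 13.2 and 15.5 CPM with low litter size. Their sum was 50.4, 68.3 and 58.6 CPM with high and 26.9, 37.8 and 32.0 CPM with low litter size, so the groups did not overlap. All 7 tested of 8 mast cell markers were positive as well (median 0.76). Over all genes tested, 55.3% were positive and 8.75% had every high library above every low one. Other lists were uniform too, with 8 of 8 adipocyte markers positive and 8 of 8 smooth muscle markers negative. Hdc, the enzyme that makes histamine, had 125, 34.8 and 82.0 CPM with high and 6.76, 2.61 and 31.4 CPM with low litter size (log2 fold change 2.56, adjusted p = 0.313). The mast cell protease gene Cpa3 had 37.0 CPM in high replicate 1 and 9.70 to 17.9 CPM elsewhere.

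The genes nearest to Itgam by the SD of the log2 difference over libraries, a search added after its values were seen, were Arhgef4 (0.25), Trim6, Alcam, Lypd6b and Rnpep (0.35). Alcam, an adhesion molecule of epithelium and leukocytes, had 42.9, 154 and 138 CPM with high and 555, 563 and 191 CPM with low litter size. Arhgef4 had 9.05, 14.9 and 14.9 CPM with high and 67.1, 56.9 and 21.2 CPM with low litter size. None of these 5 is among the 16 accompanying lists, those of leukocytes and of oviduct and uterine epithelium included.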
